A study of Mus musculus with 7 samples.

Results

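The DOCK (dedicator of cytokinesis) genes encode large guanine nucleotide exchange factors, proteins that switch on the small GTPases Rac and Cdc42. The genes described here are Dock1, Dock3, Dock4, Dock5, Dock6, Dock8, Dock9, Dock10 and Dock11, 9 of the 26286 genes in the deposited count table. They were taken as a list of symbols, matched through their Entrez identifiers, and they were selected on their fold changes between the genotypes, with the results of this same comparison already known. Their levels and fold changes are therefore given as a description, without p-values. Dock2 is not on the list and is given beside it.

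Cortical neurons were profiled by polyA RNA-seq in 4 KAT7 mutant and 3 wild type mouse embryos at E16.5, all labelled male and of strain C57BL/6. KAT7 is a histone acetyltransferase, and the labels give neither the mutant allele nor the cells in which it was made. All 7 libraries share strain, sex, age and tissue, and the design text counts the animals as separate mice. Kat7 counts were 3, 4, 3 and 10 in KAT7 mutant replicates 1 to 4, against 869, 848 and 854 in wild type replicates 1 to 3. Total counts were between 8272487 and 8813060, and no library was a repeat of another, as pairs within a genotype differed by a chi-square per gene of 2.03 to 3.62. Summed markers of excitatory cortical neurons stood at 6175 to 6426 CPM (counts scaled to a library total of 1000000) in KAT7 mutant and 6040 to 6542 CPM in wild type libraries, and the lymphocyte genes Cd3e, Ms4a1 and Cd8a had no count in any library.

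DOCK proteins lack the Dbl homology domain of the Dbl-type exchange factors and carry instead a lipid-binding DHR-1 and a catalytic DHR-2 domain. They form subfamilies: DOCK-A (Dock1, Dock2, Dock5) and DOCK-B (Dock3, Dock4) act on Rac and bind ELMO adaptor proteins, Dock6 and Dock8, of DOCK-C, act on Rac, Cdc42 or both, and DOCK-D, the zizimins (Dock9, Dock10, Dock11), act on Cdc42. In developing neurons DOCK proteins are known for roles in axon outgrowth and dendrite growth, whereas Dock2 and Dock8 are best known from blood cells.

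In KAT7 mutant neurons the zizimin gene Dock11 was 1.94-fold higher and the axon outgrowth gene Dock3 was 1.34-fold higher, while their paralogues Dock9 and Dock4 overlapped between genotypes. The weakly expressed Dock8 and Dock10 were also called higher, but under only 10 and 8 of 17 alternative settings. No member was called lower. Of the 9 members, 8 passed the filter on low counts, and Dock5 did not. Among these 8, edgeR's quasi-likelihood test with Benjamini-Hochberg adjustment over all 13681 tested genes called 4 higher and 0 lower (0 lower at an unadjusted p under 0.05, and 0 lower by DESeq2 and limma-voom). The number called higher was 2 in DESeq2, 3 in limma-voom and 2 without KAT7 mutant replicate 3, wild type replicate 1 or wild type replicate 2. Over all tested genes it called 13.1% higher and 15.8% lower, 28.9% in either direction. Since the members were listed with this contrast known, nothing is read from these shares. The median log2 fold change of KAT7 mutant over wild type was 0.44 over the 8 members and 0.00 over all tested genes. In 3 of the 8, Dock3, Dock8 and Dock11, the genotypes did not overlap and all mutant libraries lay above all wild type libraries. That pattern was found in 2258 of the 13681 tested genes, and 35.3% showed no overlap in either direction. In these bulk libraries a change in the number of cells of a type and a change in RNA per cell cannot be told apart.

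**Figure D1:**
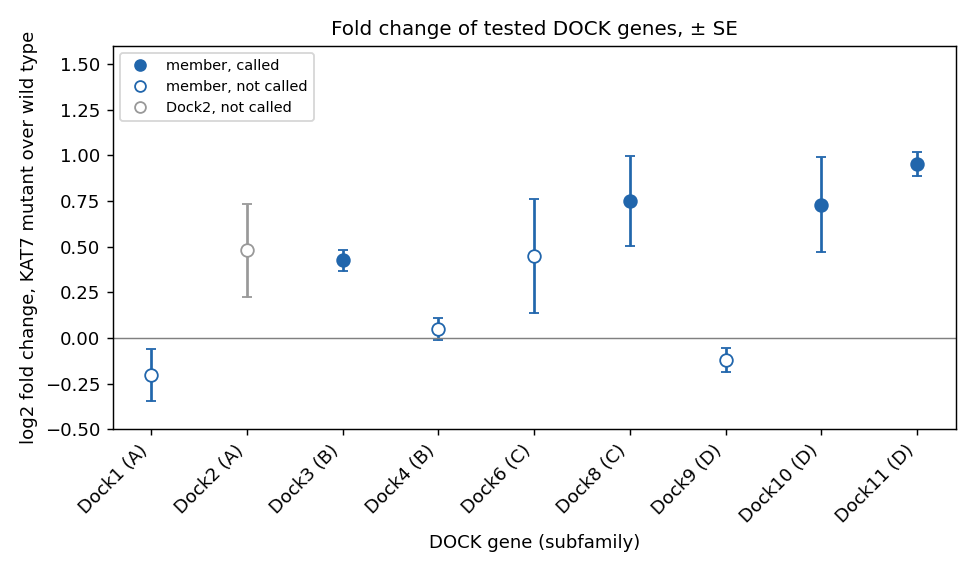
Log2 fold change (KAT7 mutant over wild type, y axis) with its SE for tested DOCK genes, by subfamily along the x axis. Filled points were called at an adjusted p under 0.05, blue points are members, and the grey point is Dock2. Dock11 stands highest at 0.95, and Dock1 lowest at -0.20.

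Levels of different genes were compared as CPM per kilobase of the deposited gene length. Among members Dock3 was the most abundant in both genotypes, at 21.7 ± 1.36 CPM per kb in KAT7 mutant (SD, n = 4) and 16.2 ± 0.802 in wild type libraries (SD, n = 3). Dock5 was the least abundant, at 0.0800 ± 0.0156 CPM per kb in KAT7 mutant and 0.119 ± 0.0373 in wild type. In KAT7 mutant the next were Dock11 (11.7 ± 0.465), Dock9 (10.02 ± 0.804) and Dock4 (9.84 ± 0.137), where Dock9 and Dock4 overlapped over libraries. In wild type the order was Dock9 (10.9 ± 0.725), Dock4 (9.51 ± 0.516) and Dock11 (6.05 ± 0.260), with no overlap between these neighbours. Dock1 stood at 1.06 ± 0.127 CPM per kb in KAT7 mutant and 1.22 ± 0.0498 in wild type. Dock10, Dock8, Dock2 and Dock6 lay between 0.328 and 0.430 CPM per kb in KAT7 mutant and between 0.227 and 0.267 in wild type on average, and neighbours in that order overlapped over libraries in each genotype. Of the members, 4 thus stood well above Dock1 and 4 well below it.

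**Figure D2:**
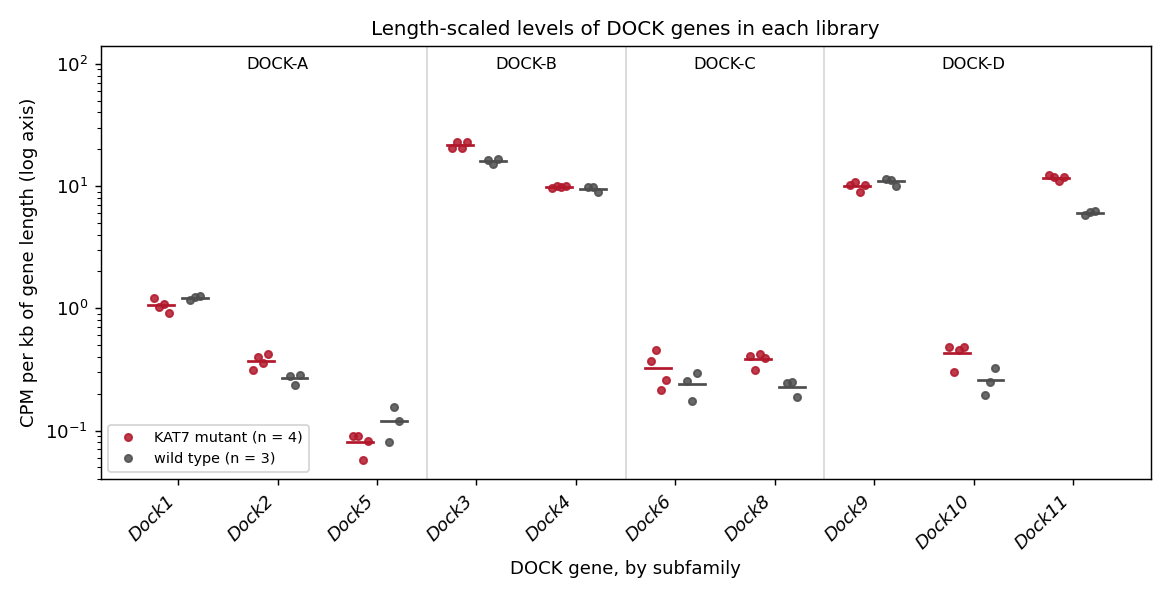
Length-scaled level (CPM per kb, log axis) of DOCK genes in every library, by subfamily; KAT7 mutant libraries (red, n = 4) stand left of wild type libraries (grey, n = 3), and bars mark means. Dock3 is highest at 21.7 in KAT7 mutant and 16.2 in wild type, and Dock11 lies above Dock9 in the mutant and below it in wild type.

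Dock11, a Cdc42 exchange factor known from lymphocytes and encoded on the X chromosome, had 81.4, 78.4, 74.0 and 78.7 CPM in KAT7 mutant replicates 1 to 4, against 38.4, 41.0 and 41.6 CPM in wild type replicates 1 to 3. The groups did not overlap, and the lowest mutant library was far above the highest wild type library. The log2 fold change was 0.95 ± 0.06 (SE), a 1.94-fold difference, and 94.5% of all tested genes had a smaller absolute value. It remained called under all 17 alternative settings, at 0.92 to 0.98 on the log2 scale.

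Dock9, the founding zizimin, which promotes dendrite growth in hippocampal neurons, had 91.0, 95.4, 78.8 and 90.8 CPM in KAT7 mutant and 101, 100.01 and 89.5 CPM in wild type libraries. The genotypes overlapped, with a log2 fold change of -0.12 ± 0.07 (SE) that was not called. Dock10, a zizimin that acts on Cdc42 and Rac, had only 30, 19, 28 and 29 counts in KAT7 mutant against 12, 16 and 21 counts in wild type libraries. KAT7 mutant replicate 2 lay below wild type replicate 3, so the genotypes overlapped. Dock10 was called at a log2 fold change of 0.73 ± 0.26 (SE), or 1.66-fold. The call was lost in DESeq2 (0.74) and limma-voom (0.72) and without KAT7 mutant replicate 1 (0.67), 3 (0.70) or 4 (0.67) or wild type replicate 1 (0.57) or 2 (0.71).

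Within the zizimins the order of Dock11 and Dock9 per kilobase differed between genotypes. The ratio of Dock11 to Dock9, in CPM per kb within a library, was 1.19, 1.09, 1.25 and 1.15 in KAT7 mutant replicates 1 to 4, against 0.505, 0.546 and 0.620 in wild type replicates 1 to 3. Per kilobase, Dock11 was thus the more abundant of the pair in every mutant library and Dock9 in every wild type library. The order in the mutant rests on the deposited gene lengths, 6665 bases for Dock11 and 8881 for Dock9. In CPM without length scaling, Dock9 was above Dock11 in every mutant library too, at means of 89.0 and 78.1 CPM. Dock11 made up 52.9% ± 1.18 of the summed zizimin level in KAT7 mutant (SD, n = 4) and 35.2% ± 2.19 in wild type (SD, n = 3), while Dock9 made up 45.2% ± 1.53 in KAT7 mutant and 63.3% ± 2.61 in wild type. Dock10 held under 2% on average in each genotype.

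**Figure D3:**
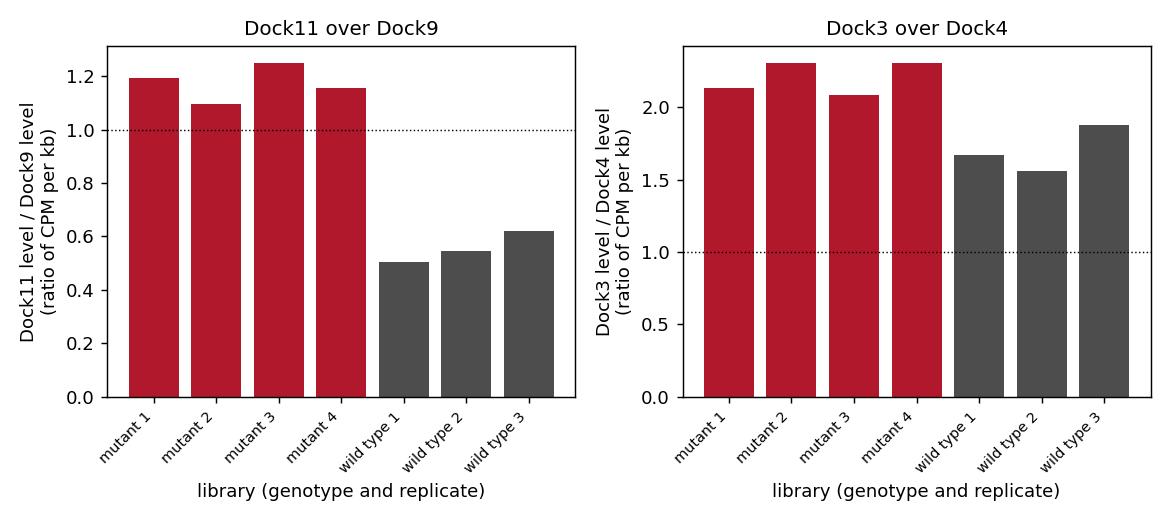
Ratio of length-scaled levels (CPM per kb) of Dock11 to Dock9 (left panel) and of Dock3 to Dock4 (right panel) in each library along the x axis, KAT7 mutant in red and wild type in grey; the dotted line marks equal levels. Dock11 over Dock9 is 1.09 to 1.25 in mutant and 0.505 to 0.620 in wild type libraries, and Dock3 over Dock4 is above 1 in all 7 libraries.

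Dock3, a Rac exchange factor that is largely confined to neurons and promotes axon outgrowth, had 186, 207, 186 and 208 CPM in KAT7 mutant replicates 1 to 4, against 149, 138 and 152 CPM in wild type replicates 1 to 3. All mutant libraries were above all wild type libraries. The log2 fold change was 0.43 ± 0.06 (SE), called under all 17 alternative settings at 0.38 to 0.45. Dock4, which acts on Rac and has been tied to Rap as well, had 77.8, 80.1, 79.5 and 80.2 CPM in KAT7 mutant and 79.4, 78.8 and 72.0 CPM in wild type libraries. These overlapped, with a log2 fold change of 0.05 ± 0.06 (SE) that was not called. The ratio of Dock3 to Dock4 in CPM per kb was 2.13, 2.30, 2.08 and 2.31 in KAT7 mutant and 1.67, 1.56 and 1.88 in wild type libraries, and so was higher in each mutant library. In GENCODE vM21, 7.49% of the merged exon bases of Dock3 overlap the antisense gene 4930524O07Rik, and without a stated strand setting for the counting, reads from the overlap cannot be told apart.

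Dock8, whose loss in humans causes an immunodeficiency and which acts on Cdc42, was at the lower end of detection, with 27, 21, 28 and 25 counts in KAT7 mutant and 16, 17 and 13 counts in wild type libraries. The genotypes did not overlap. Dock8 averaged 2.99 ± 0.383 CPM in KAT7 mutant (SD, n = 4) and 1.77 ± 0.262 CPM in wild type (SD, n = 3). Its log2 fold change was 0.75 ± 0.25 (SE). That call was lost in DESeq2 (0.76) and without KAT7 mutant replicate 3 (0.69) or wild type replicate 1 (0.80), 2 (0.82) or 3 (0.63). Dock6, which acts on Rac and Cdc42 and is mutated in a human limb and scalp syndrome, had 21, 26, 12 and 14 counts in KAT7 mutant and 14, 10 and 17 in wild type libraries. These overlapped, and the log2 fold change of 0.45 ± 0.31 (SE) was not called. In wild type libraries the mean CPM of 6.81% of all tested genes lay below that of Dock10, of 6.20% below that of Dock8 and of 4.66% below that of Dock6, so counting error weighs heavily on all 3.

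The DOCK-A genes did not pass the test. Dock1, the classic partner of ELMO proteins in cell engulfment and migration, had 8.296, 6.96, 7.44 and 6.24 CPM in KAT7 mutant and 7.96, 8.47 and 8.60 CPM in wild type libraries. The genotypes overlapped through KAT7 mutant replicate 1, and the log2 fold change was -0.20 ± 0.14 (SE). Dock5, known from osteoclasts and mast cells, had 8, 8, 5 and 7 counts in KAT7 mutant and 7, 14 and 11 counts in wild type libraries. It did not pass the count filter, and without a filter its log2 fold change was -0.57 ± 0.41 (SE). Dock2, the Rac exchange factor of leukocytes and no member, had 17, 22, 19 and 22 counts in KAT7 mutant and 15, 13 and 16 counts in wild type libraries, with a log2 fold change of 0.48 ± 0.26 (SE) that was not called.

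Summed by subfamily in CPM per kb, the level of DOCK-D genes was 22.2 ± 1.18 in KAT7 mutant and 17.2 ± 0.517 in wild type, a ratio of 1.29. For DOCK-B genes it was 31.6 ± 1.47 in KAT7 mutant and 25.7 ± 0.646 in wild type, a ratio of 1.23. In both subfamilies every mutant library was above every wild type library. For DOCK-A genes it was 1.51 ± 0.0817 in KAT7 mutant and 1.61 ± 0.0721 in wild type, a ratio of 0.941, and the genotypes overlapped. Over the 9 members the sum was 55.6 ± 2.22 in KAT7 mutant (SD, n = 4) and 44.7 ± 0.627 in wild type (SD, n = 3), a ratio of 1.24. The higher DOCK-D sum lay mostly in Dock11, at 11.7 in KAT7 mutant and 6.05 in wild type, while Dock9 was lower, at 10.02 and 10.9. The higher DOCK-B sum lay mostly in Dock3, at 21.7 in KAT7 mutant and 16.2 in wild type, with Dock4 at 9.84 and 9.51. The DOCK-A sum includes Dock2, which is no member, and Dock6 and Dock8 were not summed as a subfamily. Since the other genes were listed with the contrast known, the sums are given without a test.

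The promoters of the 4 called members are shown as a description only, since the members were listed with their fold changes known. They are RefSeq windows of GRCm38.p6 from 250 bases before to 50 bases after the annotated start, 5′ to 3′ on the gene's strand, with CG dinucleotides in capitals. They lie at chrX:35888582-35888881 (plus strand) for Dock11, chr9:107231860-107232159 (minus strand) for Dock3, chr19:24999279-24999578 (plus strand) for Dock8 and chr1:80758504-80758803 (minus strand) for the more CG-rich of the 2 Dock10 windows.
Dock11: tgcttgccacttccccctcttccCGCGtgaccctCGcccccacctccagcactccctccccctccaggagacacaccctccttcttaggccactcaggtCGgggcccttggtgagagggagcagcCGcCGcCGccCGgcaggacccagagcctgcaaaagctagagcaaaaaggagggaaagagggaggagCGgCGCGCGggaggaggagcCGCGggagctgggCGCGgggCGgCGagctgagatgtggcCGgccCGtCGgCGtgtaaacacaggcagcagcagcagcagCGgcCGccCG
Dock3: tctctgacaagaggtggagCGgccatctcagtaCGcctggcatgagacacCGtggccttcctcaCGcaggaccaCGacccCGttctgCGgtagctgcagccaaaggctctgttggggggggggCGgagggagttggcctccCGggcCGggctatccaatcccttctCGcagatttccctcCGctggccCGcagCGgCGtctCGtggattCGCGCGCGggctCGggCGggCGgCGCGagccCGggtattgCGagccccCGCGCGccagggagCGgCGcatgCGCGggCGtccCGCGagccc
Dock8: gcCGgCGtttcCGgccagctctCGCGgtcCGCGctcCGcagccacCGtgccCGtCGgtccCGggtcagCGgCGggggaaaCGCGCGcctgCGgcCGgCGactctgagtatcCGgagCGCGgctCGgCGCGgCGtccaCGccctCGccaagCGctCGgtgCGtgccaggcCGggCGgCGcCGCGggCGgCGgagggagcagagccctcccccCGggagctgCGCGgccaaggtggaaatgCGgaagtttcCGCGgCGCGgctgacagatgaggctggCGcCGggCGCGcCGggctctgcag
Dock10: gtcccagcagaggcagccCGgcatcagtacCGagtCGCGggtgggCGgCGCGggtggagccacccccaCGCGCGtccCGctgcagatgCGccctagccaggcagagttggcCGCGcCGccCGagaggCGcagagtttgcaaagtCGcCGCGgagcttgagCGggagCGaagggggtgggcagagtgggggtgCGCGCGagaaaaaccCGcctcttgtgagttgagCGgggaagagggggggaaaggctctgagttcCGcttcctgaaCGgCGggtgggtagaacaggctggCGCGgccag
The 4 printed windows hold 25 CG dinucleotides in Dock11, 37 in Dock3, 52 in Dock8 and 32 in Dock10, against a median of 7 over all 32851 windows, and 99.4% of windows hold fewer than that of Dock8. The second Dock10 window holds 5 and lacks GGGCGG. Among the members that were not called, there were 34 in Dock1, 29 in Dock4, 27 in Dock6 and 5, 7 and 41 in the 3 windows of Dock9, so that windows of called and uncalled genes overlapped in CG number. The motif GGGCGG, searched on both strands and overlapping CG dinucleotides, was found in 8 of 12 DOCK windows, those printed here included, and in 35.7% of all windows. TATAAA was found in 0 of 12 and in 13.6% of all windows, and CCAAT in 2 of 12 and 37.4%. The median and the shares over all windows were taken without regard to expression in these libraries. Windows were found for 8 of the 9 members. No 50-base stretch was shared between transcripts in any of the 45 pairs among the 9 members and Dock2 (GENCODE vM21).

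The lists of the DOCK pathway hold known partners, substrates and regulators and, like the members, were chosen with earlier results of these data known, so that their p-values are not independent evidence. Over all tested genes 13.1% were called higher and 15.8% lower. The counts for each list are a description beside these shares, and nothing is read from them. Of 16 tested DOCK partners 3 rose and 2 fell, with a median log2 fold change of -0.04. Elmo1, the adaptor that binds DOCK-A and DOCK-B proteins, had 97.2, 106, 107 and 95.0 CPM in KAT7 mutant and 62.6, 68.5 and 76.0 CPM in wild type libraries. It rose by 0.55 ± 0.07 (SE) on the log2 scale (edgeR adjusted p = 4.18e-06). Its paralogue Elmo2, picked after its values were seen, was not called, with 85.9 CPM in KAT7 mutant and 93.4 CPM in wild type on average, a log2 fold change of -0.12. Ankrd28, which binds Dock1 protein, rose by 0.29 (edgeR adjusted p = 0.000435), and the ELMO-binding receptor gene Adgrb3 rose by 0.21 (edgeR adjusted p = 0.0186). Adgrb3 lost its call without KAT7 mutant replicate 2 (0.18) or wild type replicate 3 (0.17). Lrch1, an inhibitor of Dock8 protein, and Sh3yl1, a Dock4-binding protein, had log2 fold changes of -0.26 and -0.28 and were called. Both calls were lost in DESeq2 (-0.26 and -0.28) and without KAT7 mutant replicate 4 (-0.21 and -0.26), wild type replicate 1 (-0.23 and -0.27) or wild type replicate 2 (-0.24 and -0.25), that of Lrch1 also without KAT7 mutant replicate 1 (-0.23), and that of Sh3yl1 also without KAT7 mutant replicate 3 (-0.24).

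The main substrate GTPases, Rac1 and Cdc42, were not called. Rac1 averaged 316 CPM in KAT7 mutant and 319 CPM in wild type, with a log2 fold change of -0.01 ± 0.05 (SE), and Cdc42 averaged 368 CPM in KAT7 mutant and 369.5 CPM in wild type, with one of -0.01 ± 0.05 (SE). The sign of both turned with single libraries left out. Of 11 tested Rac and Cdc42 family GTPases 1 rose and 0 fell in edgeR (2 lower at an unadjusted p under 0.05), at a median of -0.01. The riser was Rac2, the GTPase of blood cells, with 8.18, 6.03, 9.57 and 7.95 CPM in KAT7 mutant and 5.58, 5.26 and 4.41 CPM in wild type libraries. Its log2 fold change was 0.64 ± 0.17 (SE, edgeR adjusted p = 0.00868), and it lost its call without wild type replicate 3 (0.55).

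Among 31 tested Rac and Cdc42 effectors 4 rose and 5 fell, at a median of -0.07. These counts were near the shares over all tested genes, 13.1% higher and 15.8% lower. The Cdc42 effector gene Cdc42ep3 rose by 0.29, the kinase gene Pak6 by 0.26 and Abi1, of the WAVE actin-regulatory complex, by 0.24. The kinase gene Pak4 fell by 0.42 and Limk1, whose kinase acts on cofilin, by 0.31 on the log2 scale. Cdc42ep2 was called at -0.35, a call that was lost in DESeq2 (-0.35), without a count filter (-0.36) and without KAT7 mutant replicate 1 (-0.32) or 3 (-0.30) or wild type replicate 1 (-0.31), 2 (-0.38) or 3 (-0.37).

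Of 33 tested Dbl-type exchange factors, the other large class of activators of the same GTPases, 7 rose and 3 fell, at a median of 0.11. Prex1, a Rac exchange factor, rose to 150 ± 12.3 CPM in KAT7 mutant (SD, n = 4), against 92.4 ± 9.49 CPM in wild type (SD, n = 3), by 0.70 on the log2 scale (edgeR adjusted p = 3.51e-07). Rasgrf1 rose by 0.85 while its paralogue Rasgrf2 fell by 1.34, both exchange factors of Ras and Rac, and Vav2 rose by 0.30. Itsn1, a scaffold that activates Cdc42, fell by 0.22. Farp2 was called at -0.44, a call that was lost in DESeq2 (-0.43) and without KAT7 mutant replicate 1 (-0.38) or 4 (-0.41) or wild type replicate 2 (-0.40) or 3 (-0.44). Without wild type replicate 2 the list had 4 rises.

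Of 21 tested genes that switch Rac and Cdc42 off or hold them inactive, 6 rose and 3 fell, at a median of 0.06. Chn2, a chimaerin that inactivates Rac, rose to 59.0 CPM in KAT7 mutant, against 34.3 CPM in wild type, by 0.78 on the log2 scale (edgeR adjusted p = 9.80e-08). Arhgap31 rose by 0.66 and Arhgdib, the GDI of blood cells, by 0.50. Sh3bp1 fell to 1.57 CPM in KAT7 mutant, against 4.46 CPM in wild type. Racgap1, which acts in cell division, fell by 0.68 and Arhgdia by 0.15 on the log2 scale, the last losing its call without wild type replicate 3 (-0.13).

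**Figure D4:**
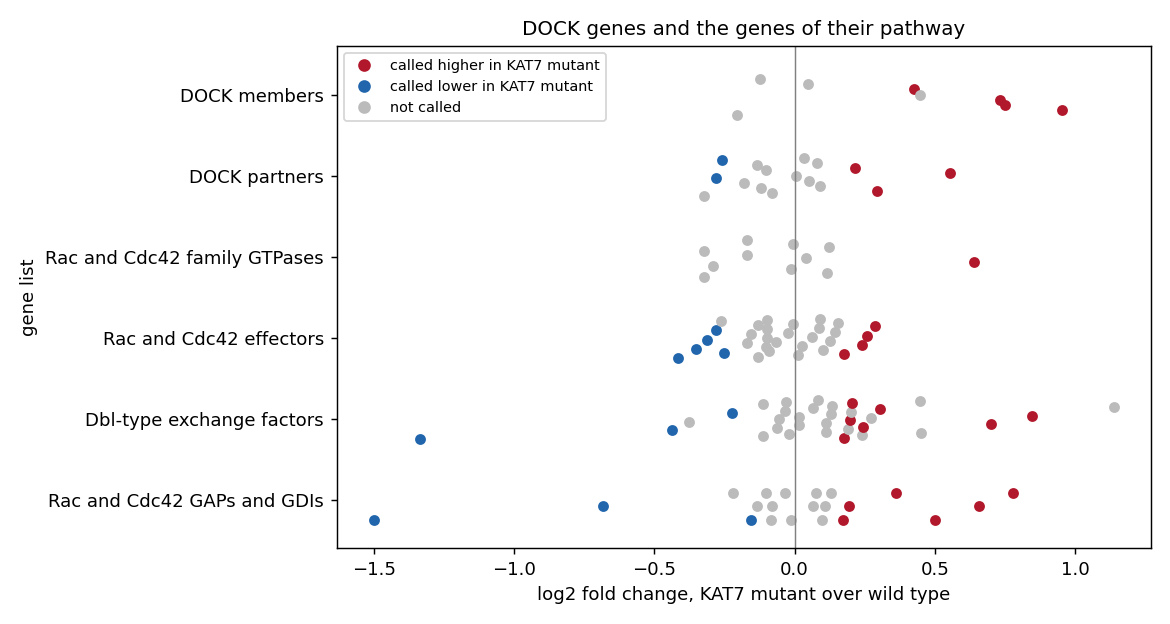
Log2 fold change (KAT7 mutant over wild type, x axis) of each tested gene, by gene list down the y axis; points are genes, coloured by whether edgeR called them higher, lower or not at an adjusted p under 0.05, and their vertical spread has no meaning. The members run from -0.20 to 0.95, and the GAP and GDI genes reach 0.78 with Chn2.

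Markers of microglia and macrophages were higher in KAT7 mutant libraries. Their summed level was 44.8 to 58.7 CPM in KAT7 mutant and 28.8 to 32.9 CPM in wild type libraries, and 6 of 9 tested markers rose and 0 fell in edgeR (0 lower at an unadjusted p under 0.05, and 0 in DESeq2 and limma-voom), at a median log2 fold change of 0.63. Csf1r, the receptor on which microglia depend, rose by 1.05 and Ptprc, which encodes the leukocyte antigen CD45, by 0.87, a call that was lost without wild type replicate 3 (0.68). The markers P2ry12 and Trem2 did not pass the count filter. Beside these stand the log2 fold changes of 0.75 for Dock8, 0.73 for Dock10, 0.64 for Rac2 and 0.48 for Dock2, the last of which was not called. Dock5, known from osteoclasts and mast cells, went the other way, at means of 0.827 CPM in KAT7 mutant and 1.23 CPM in wild type, without a test. Among other weakly expressed genes of the pathway lists, Swap70 (-0.38) and Wipf1 (-0.18) were lower. Vav1 (0.45) and Arhgef6 (0.45) were higher, and none of these was called. Other marker lists differed too. Their median log2 fold changes were 0.76 for the oligodendrocyte lineage and 0.41 for interneurons, but -0.51 for radial glia and -0.48 for astrocytes. Over all tested genes 13.1% were called higher and 15.8% lower. The part of RNA from microglia or other cell types in the differences of Dock8, Dock10, Rac2 and Dock2 was not tested.

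The genes whose profile over the 7 libraries was most like that of Dock11 were Plcb4, Siah3 and Duxbl2. Likeness was the root mean square difference in log2 CPM after each gene was centred on its mean, and was 0.0664 for Plcb4, a phospholipase C gene, 0.0671 for Siah3 and 0.0692 for Duxbl2. Their own log2 fold changes were 1.02, 1.02 and 1.00. A small difference over libraries of both genotypes largely fixes such values near that of Dock11, so they are no separate result. Within 0.2 of the Dock11 profile lay 103 named genes. No member was called lower, so no such genes were sought for a fall.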

How the data were processed

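Gene expression was measured by polyA RNA-seq in 7 libraries. The authors deposited whole-number read counts per Entrez gene, with a gene length, made with featureCounts on mm9 per the submitters' processing notes. For the aligner, annotation release and strand: not given in the sources used here. Each count column was tied to its sample by the label's description. Symbols came from an NCBI gene table of GRCm38.p6, which names 24176 of 26286 identifiers.

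Genes were filtered with filterByExpr of edgeR version 4.0.16 (minimum count 10) in R version 4.3.3, which left 13681, scaled by TMM factors (0.989 to 1.01), and compared with a two-sided quasi-likelihood F test on genotype alone. P-values were Benjamini-Hochberg adjusted over all tested genes and called under 0.05. SE is the absolute log2 fold change divided by the root of F. CPM use TMM-scaled totals of tested genes, and CPM per kb divides by the deposited gene length. P-values measure the spread between the mice of each genotype.

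Members and gene lists were chosen with earlier results of these data known. Named pathway genes are, per list, the 3 called genes of largest rise and the 3 of largest fall with a mean of at least 1 CPM in a genotype; for microglia 2 were taken, and Elmo2 was chosen after its values were seen. The code was tested on simulated data.

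The alternatives tried were other scaling (RLE, upper quartile, library size only), other filters (none, or 1 CPM in 3 libraries), DESeq2 version 1.42.0, limma-voom (limma version 3.58.1), a robust fit, the replicate number as a block, an adjusted p under 0.01 and each library left out. Protein sequences were not used here, and some results are not reported here.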

Additional observations from a re-analysis of the deposited data

Results flagged for a closer look

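The summed DOCK-D level stood apart in a single library. It was 20.4 CPM per kb in KAT7 mutant replicate 3, below the 22.9, 22.8 and 22.5 CPM per kb of KAT7 mutant replicates 1, 2 and 4, and its gap to the nearest of them was 0.834 of the whole range. Against wild type libraries, at 16.6 to 17.7 CPM per kb, it was still higher. Dock9 and Dock11 were each lowest among the mutants in this library, at 8.87 and 11.1 CPM per kb. Of 14 sets of mutant values screened in this way 1 stood out, and chance flags about 1 in 20.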

How the results depend on the processing

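Dock3 and Dock11 were called higher under all 17 alternatives, Dock8 under 10 and Dock10 under 8, and no member was called lower under any. The number of members called higher was 2 in DESeq2, at an adjusted p under 0.01 and with the replicate block, and 2 to 4 with 1 library left out (2 without KAT7 mutant replicate 3, wild type replicate 1 or wild type replicate 2). The median log2 fold change of the members was 0.318 (without KAT7 mutant replicate 2) to 0.537 with 1 library left out. DOCK partners called lower were 0 in DESeq2, at an adjusted p under 0.01 and with the replicate block, and 0 to 2 with 1 library left out. GTPases called higher were 0 to 1, and those called lower 0 to 1, with 1 library left out (1 lower without KAT7 mutant replicate 4), and 1 was called lower with library size only. Dbl-type exchange factors called higher were 4 at an adjusted p under 0.01 and 4 to 8 with 1 library left out. Over all genes, 1034 were called higher at an adjusted p under 0.01, against 1793. The log2 fold change of Cdc42 turned to 0.0053 with the replicate block and was -0.037 to 0.0092 with 1 library left out, and that of Rac1 was -0.046 to 0.0056. Same-numbered libraries of the genotypes did not deviate together (correlations of 0.018, 0.012 and -0.029 over genes), so the block pairs samples that share only a number; under it Dock8 and Dock10 were not called. Apart from the stricter threshold, the cause of a lost call was not tested. With 1 library left out, the smaller number of libraries and a moved fold change cannot be told apart. Dock10 went from 0.73 to 0.57 without wild type replicate 1. Dock8 went from 0.75 to 0.63 without wild type replicate 3 and to 0.82 without wild type replicate 2. The ratios of summed levels kept their direction, at 0.915 to 0.960 for DOCK-A and 1.27 to 1.32 for DOCK-D. Counts of 5 to 30 per library limit Dock5, Dock6, Dock8 and Dock10.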

Other observations

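Markers of other cell types were tallied in the same edgeR test, which called 13.1% of all tested genes higher and 15.8% lower. Radial glia genes fell in 6 and rose in 0 of 9 tested genes (0 higher at an unadjusted p under 0.05, and 0 in DESeq2 and limma-voom), with a summed level of 458 to 508 CPM in KAT7 mutant and 699.8 to 721 CPM in wild type libraries. For the oligodendrocyte lineage 4 of 8 genes rose and 1 fell, and for interneurons 5 of 10 rose and 1 fell. The interneuron rises were 3 without wild type replicate 2 or 3, and 0 were lower in DESeq2, in limma-voom and without KAT7 mutant replicate 2, 3 or 4 or wild type replicate 1. For astrocytes 2 of 4 genes fell, and for excitatory neurons 4 of 10 rose and 3 fell. For intermediate progenitors 1 of 5 genes rose and 2 fell, against 0 higher and 1 lower in DESeq2 and in the robust fit, and 1 lower without wild type replicate 3. Of 3 tested genes of pericytes and meninges 1 fell, against 3 without wild type replicate 3. Of 3 endothelial, 4 blood and 1 lymphocyte genes 0 were called in edgeR and in DESeq2, while limma-voom called 1 blood gene higher. Without wild type replicate 1, which had 34.6 CPM of the globin gene Hba-a1 against 8.93 and 4.98 CPM in wild type replicates 2 and 3, all 4 blood genes were called higher, and without KAT7 mutant replicate 2 1 was. Without KAT7 mutant replicate 4 or wild type replicate 2, 1 endothelial gene was called higher. At an unadjusted p under 0.05, 1 endothelial and 1 blood gene were higher in edgeR.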
